A study of Mus musculus with 24 samples.

Results

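Gene expression was measured in epididymal white adipose tissue (EWAT), the fat pad that lies along the epididymis, 48 h after male C57BL/6J mice on normal chow were injected intraperitoneally with gapmer antisense oligonucleotides. The treated animals received oligonucleotides against Sox6 and the controls received control oligonucleotides, and the labels name no other difference between them. Of the 24 Illumina mouse bead arrays of the series, the 10 hybridised with EWAT were used, and the 14 liver arrays served only for a comparison of the tissues. The EWAT arrays stand for 8 labelled samples, C1 to C4 with the control and S1 to S4 with the SOX6 oligonucleotide. C1 and S1 were each measured on 2 arrays, which were averaged, so n is 4 samples per treatment. The labels number the samples but do not say that each number is a separate animal, so the tests measure the spread between labelled samples. Levels are log2 intensities after normalization, and a difference is the SOX6 mean minus the control mean on that scale. Of 10978 genes with a detected probe, 10231 were described and 747 were set aside because their level followed the admixed duct tissue described below.

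SOX6 is a transcription factor of the SoxD group of the SOX family, which bends DNA through its high mobility group domain and recruits other activators and repressors. Gapmers are antisense oligonucleotides with a DNA core that pairs with an RNA and directs its cleavage by RNase H. White fat cells arise from stromal precursors when PPARG and CEBPA switch on the genes of lipid storage, and canonical Wnt signalling holds precursors back from that step. The series asks what lowering Sox6 does to adipogenic and Wnt genes. In adult fat, RNA also comes from endothelial cells, resident macrophages, fibroblasts, mesothelium and, in dissected epididymal pads, from whatever adjoining duct is taken along. In a bulk sample, fewer cells of a type and less RNA per cell cannot be told apart.

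4 of the 8 samples carried high levels of genes that were low in the other EWAT samples. Spink8, a serine protease inhibitor gene of the epididymis, had log2 levels of 4.94, 4.47, 4.46 and 4.98 in C1 to C4 and 4.82, 14.20, 4.67 and 13.82 in S1 to S4. S2 and S4 therefore stood more than 3 log2 units above the median of the samples and are called Spink8-high. Defb42, an epididymal beta-defensin, followed the same samples at 4.30, 4.32, 4.75 and 4.36 in C1 to C4 and 4.35, 12.995, 5.64 and 12.68 in S1 to S4. Actg2, the enteric smooth muscle actin, reached 14.03 in S2 and 13.36 in S4 and lay between 5.14 and 8.67 in the other samples. The protease inhibitor gene Wfdc15b was highest in the same samples, 11.35 and 10.95, and intermediate in C3 and S3. Cldn2, a claudin of leaky epithelia, marked another pair at 4.26, 4.28, 10.04 and 4.35 in C1 to C4 and 4.34, 5.08, 9.97 and 4.65 in S1 to S4. C3 and S3 are called Cldn2-high, and 1 of them is a control and 1 is treated. Cdhr5, a brush border protocadherin, had 10.51 in C3 and 10.26 in S3 against at most 4.83 elsewhere, and the cadherin gene Cdh16 had 10.33 and 10.53 with 6.65 in S2 as the next value. The secreted protein gene Mia had 10.28 and 10.23 in C3 and S3 and 8.47 and 8.27 in the Spink8-high pair. Lcn2, lipocalin 2, reached 12.08 in both Cldn2-high samples and 8.88 and 8.71 in the Spink8-high samples.

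**Figure D1:**
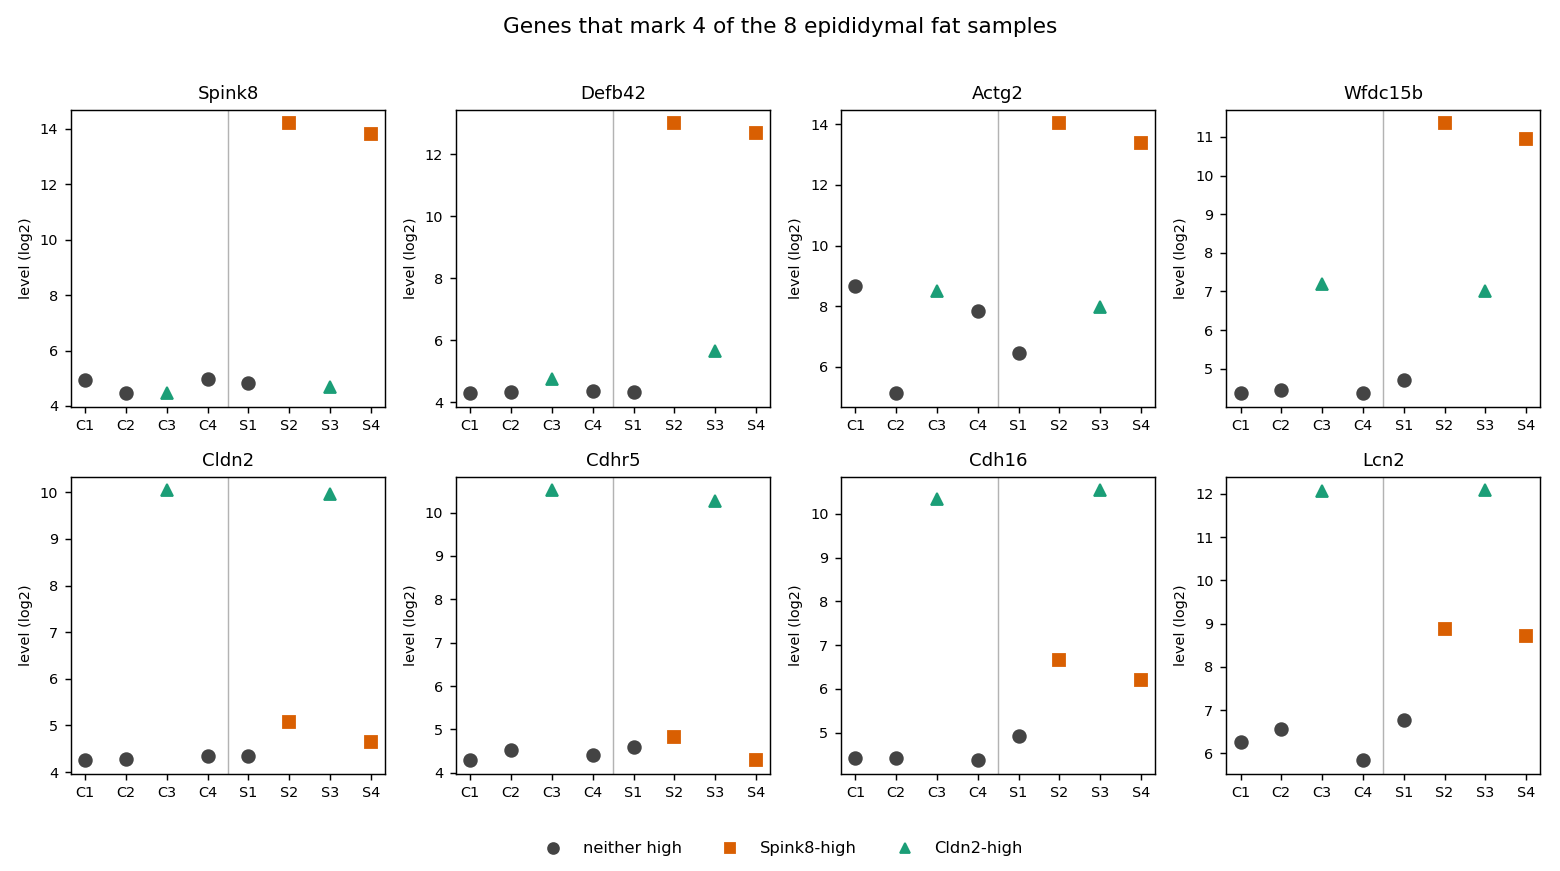
Log2 level (vertical axis) of 8 genes in each EWAT sample (horizontal axis, controls C1 to C4 left of the line and SOX6 samples S1 to S4 right of it), with 1 point per sample and repeat arrays averaged. Spink8, Defb42, Actg2 and Wfdc15b are highest in S2 and S4, and Cldn2, Cdhr5, Cdh16 and Lcn2 are highest in C3 and S3.

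The detected members of several marker lists were high in the same samples. The epididymis list holds Spink8 and Defb42, the ciliated list Cldn2 and Cdh16, and the smooth muscle list Actg2. Their height in these samples is therefore partly given by how the samples and genes were picked. Of 29 epididymis and deferent duct epithelium genes on the array, 9 were detected, and their mean deviation from the gene means was -1.13, -1.05, -0.25 and -1.22 in C1 to C4 and -1.10, 2.31, 0.45 and 1.99 in S1 to S4. The ciliated and reabsorbing duct epithelium list, with 13 of 26 genes detected, reached 1.99 in C3 and 1.94 in S3 and was below 0 in the other 6 samples. The smooth muscle and pericyte list was at 1.60 in S2 and 1.39 in S4 and the skeletal muscle list at 1.52 and 1.36, with every other sample below 0 on both. Both Spink8-high samples are treated and none is a control, so duct and muscle RNA of this kind cannot be told apart from the treatment in any gene it carries. A gene was set aside when every sample of a set lay above all of C1, C2, C4 and S1 and its mean rise over them was at least 1 log2 unit. This took out 238 genes for the Spink8-high samples, 359 for the Cldn2-high samples and 150 for both. The rule takes out mostly genes with higher SOX6 means, 643 of the 747. Both Spink8-high samples are treated, and all of the 238 and the 150 genes had higher SOX6 means. Of the 359 genes of the Cldn2-high samples, which are 1 of each treatment, 255 did. List values after the rule are therefore set beside those over all detected members where these differ in sign or clearly in size. The values just inside and outside were close: Rragb, higher by 1.001, was set aside, and Slc25a12, higher by 0.9995, was kept. Among regulators of interest the rule set aside Gata2, Gata3, Egr2, Id2 and Klf5 of the adipogenic list and Rspo3, Sfrp1, Sfrp2, Wif1 and Ccnd1 of the Wnt lists. Across the detected genes, the samples of neither set correlated at Pearson r of 0.983 to 0.991, and the lowest r of any pair of samples was 0.947. The tissue label fitted the fat genes: Adipoq, the adiponectin gene, lay between 14.12 and 14.45 in all 8 samples.

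Sox6 (chr7:115470872-116040776, GRCm38.p6) was read by 1 of its 5 probes, while the other 4 were above background on 0 arrays. Its log2 levels were 6.14, 6.19, 5.45 and 5.85 in C1 to C4 and 5.54, 5.12, 5.74 and 4.94 in S1 to S4. S2 and S4, the Spink8-high samples, were lowest, S3 lay above C3, and the treatments overlapped. The mean was 5.91 ± 0.34 against 5.34 ± 0.37 (control against SOX6, SD, n = 4 each), a difference of -0.57 (SE 0.23, 95% interval -1.10 to -0.046). This is 1.49-fold lower, with p = 0.0857 in a two-sided exact permutation test (4 against 4 samples cannot give less than 0.0286) and an adjusted p of 0.841 by limma. On each of the 4 chips the mean of the SOX6 arrays was below that of the control arrays, with differences of -0.27, -0.44, -0.84 and -0.50 log2 units. S1 was on chips 1 and 3, and C1 was the only control on chip 3, so these differences are not independent. Without the Spink8-high samples the difference was -0.27, without the Cldn2-high samples -0.86, and with a term for each set of samples -0.20. Where in the transcript the gapmer pairs relative to this probe is not given in the sources used here.

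Across the tissue no gene passed the threshold. Of 10978 genes, 0 (0%) had an adjusted p under 0.05 by limma, and the smallest adjusted p was 0.841. At an unadjusted p under 0.05 there were 227 genes with higher (2.07%) and 322 with lower (2.93%) levels in the SOX6 samples. Of the 227, 78 were among the genes set aside and 149 were not, and of the 322 none was set aside. The rule takes out only genes that rise in a set, so genes that are lower in those samples stay in these counts. With a term for each set of samples, the genes not set aside numbered 196 higher and 128 lower at this p by limma. The count of lower genes was 35 with median scaling and ran from 175 without S2 to 710 without C3. In 307 genes (2.80%) the 4 SOX6 samples did not overlap with the 4 controls, 83 higher (0.756%) and 224 lower (2.04%). After the duct genes were set aside, 74 higher and 224 lower genes without overlap were left. This split depended on the scaling: with arrays scaled to a common median it was 137 higher and 36 lower, and with cyclic loess 121 higher and 189 lower. Of the genes not set aside, 57.8% were lower and 42.2% higher as normalized here, and 30.8% were lower with median scaling. Counts of higher and lower genes in the lists below stand beside these shares. The median difference over the genes not set aside was -0.035 as normalized here and 0.083 with median scaling, so directions of gene groups are given below also relative to that median. With each of the 8 samples left out in turn, 0 genes passed. When all of S2, S4, C3 and S3 were left out, S1 stood alone against C1, C2 and C4, and 2 genes passed. They were Spink1, a trypsin inhibitor gene at 7.75 in S1 and 4.33 to 4.42 in C1, C2 and C4, and Keg1, which was among the genes set aside.

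**Figure D2:**
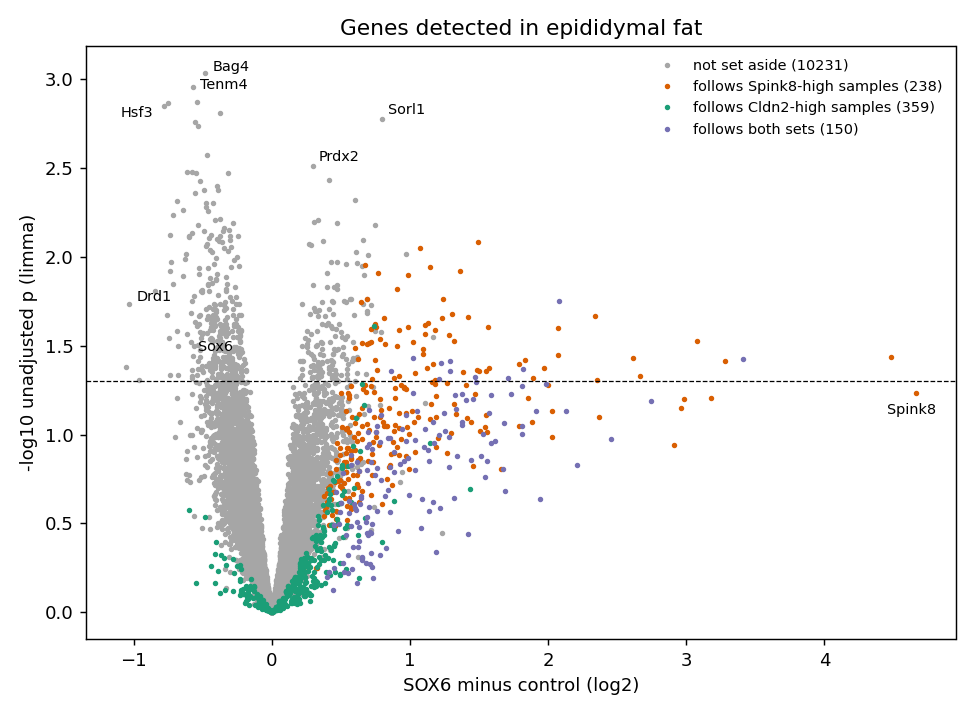
SOX6 minus control difference (horizontal axis, log2) against the -log10 of limma's unadjusted p (vertical axis) for the 10978 genes, 1 point per gene, coloured by whether the gene followed the Spink8-high samples, the Cldn2-high samples or both. The dashed line marks the unadjusted threshold of 0.05. The differences above 2 belong to genes that were set aside, and no gene passed the adjusted threshold.

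Among the genes with higher levels and no overlap, the 6 with the smallest p were Sorl1, Prdx2, Adh5, Cbr2, Aimp1 and Cfdp1, all with an adjusted p of 0.841. Sorl1 (chr9:41964709-42124297), a sorting receptor of the endosome that also binds lipoproteins, had levels of 5.91, 6.53, 6.60 and 6.56 in C1 to C4 and 7.03, 7.40, 7.21 and 7.17 in S1 to S4. C1 was the lowest and the gap between the highest control and the lowest SOX6 sample was wider than the spread among the other controls. The difference was 0.80 (SE 0.18, 95% interval 0.39 to 1.21), or 1.74-fold. Prdx2 (chr8:84969622-84974811), a peroxiredoxin that removes hydrogen peroxide, was at 11.24, 11.26, 11.42 and 11.36 in C1 to C4 and 11.61, 11.61, 11.69 and 11.56 in S1 to S4. The difference of 0.30 (SE 0.076, 95% interval 0.13 to 0.47) was small and the samples of each treatment lay close together. These values are from its probe with the highest mean. In its other detected probes the treatments overlapped, with differences of 0.048 and -0.14. Adh5 (chr3:138437200-138455499), the alcohol dehydrogenase that detoxifies formaldehyde and nitrosoglutathione, measured 9.42, 9.25, 9.499 and 9.25 in C1 to C4 and 9.60, 9.98, 9.80 and 9.70 in S1 to S4, and its difference was 0.42 (SE 0.11). In its other detected probe the treatments overlapped, with a difference of -0.11. Cbr2 (chr11:120729485-120732025), a carbonyl reductase, measured 8.66, 8.45, 8.58 and 7.97 in C1 to C4 and 9.27, 9.03, 8.89 and 8.88 in S1 to S4, with C4 lowest and S1 highest. Its difference of 0.60 (SE 0.16) ran from 0.30 to 1.37 over the chips. Aimp1 (chr3:132660498-132684390), a scaffold of the aminoacyl-tRNA synthetase complex, differed by 0.34 (SE 0.096), and Cfdp1 (chr8:111766682-111854337), a craniofacial development protein, by 0.31 (SE 0.088). The widest differences without overlap brought in Gmfg, an actin regulator of leukocytes, at 7.22, 7.61, 7.36 and 6.65 in C1 to C4 and 7.84, 8.12, 7.85 and 7.63 in S1 to S4 and 0.65 (SE 0.21). Its other detected probes differed by 0.55 without overlap and by -0.13 with overlap. Timd4, the phosphatidylserine receptor of resident macrophages, measured 5.59, 5.61, 5.38 and 4.72 in C1 to C4 and 6.46, 5.79, 5.82 and 5.66 in S1 to S4, differed by 0.61 (SE 0.25), and was detected on 4 of 5 control and 5 of 5 SOX6 arrays. Tmem119, a membrane protein of bone cells and microglia, differed by 0.57 (SE 0.20). The unnamed transcript 1700019D03Rik, detected on 3 of 5 control arrays, differed by 0.67 (SE 0.22).

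The 6 genes with lower levels were Bag4, Tenm4, Agt, Gmds, Hsf3 and Cdh5, again with adjusted p of 0.841. Bag4 (chr8:25764538-25785209), a co-chaperone of HSP70 that silences death receptors, had levels of 9.83, 9.57, 9.53 and 9.73 in C1 to C4 and 9.32, 9.17, 9.20 and 9.05 in S1 to S4. The difference of -0.48 (SE 0.10, 95% interval -0.70 to -0.25) was the one with the smallest p among all genes and lay between -0.57 and -0.37 on the 4 chips. Tenm4 (chr7:96171244-96911093), a teneurin of cell adhesion, measured 10.94, 11.28, 10.81 and 11.15 in C1 to C4 and 10.68, 10.33, 10.46 and 10.42 in S1 to S4. It differed by -0.57 (SE 0.12), with the Spink8-high samples lowest and C2 highest. In its other detected probes the treatments overlapped, with differences of -0.81 and -0.27. Agt (chr8:124556587-124569706), angiotensinogen, which fat cells secrete, measured 10.95, 10.59, 10.57 and 10.79 in C1 to C4 and 10.20, 9.94, 10.36 and 10.22 in S1 to S4. Its levels were 10.72 ± 0.18 against 10.18 ± 0.18 (SD, n = 4), a difference of -0.54 (SE 0.12), and S3 was nearest to the controls. Gmds (chr13:31819583-32338762), the enzyme that starts GDP-fucose synthesis, measured 7.65, 7.43, 7.89 and 7.60 in C1 to C4 and 6.96, 6.70, 7.24 and 6.68 in S1 to S4. The difference of -0.75 (SE 0.17) was narrowest on the chip of C2 and S3 at -0.19. Hsf3 (chrX:96306178-96456294), a heat shock factor, measured 5.95, 5.92, 5.55 and 6.09 in C1 to C4 and 5.42, 4.94, 4.96 and 5.05 in S1 to S4 and differed by -0.78 (SE 0.17). Cdh5 (chr8:104101613-104144504), VE-cadherin of endothelial junctions, measured 10.19, 10.17, 10.17 and 10.14 in C1 to C4 and 9.92, 9.63, 9.76 and 9.85 in S1 to S4. The SD of its controls was 0.022 log2 units, and the difference was -0.38 (SE 0.085). By width of the difference, Drd1, a dopamine receptor gene, led at 7.23, 6.08, 5.92 and 5.80 in C1 to C4 and 5.70, 4.69, 4.84 and 5.67 in S1 to S4 and -1.03 (SE 0.36), and it was detected on 4 of 5 SOX6 arrays. Ppargc1b, a coactivator of mitochondrial genes, measured 8.46, 7.41, 7.62 and 7.58 in C1 to C4 and 7.39, 6.83, 6.93 and 6.98 in S1 to S4 and differed by -0.74 (SE 0.24). In both genes C1 was well above the other controls, and without C1 the differences were -0.71 and -0.51. Lrtm1, a leucine-rich repeat membrane protein, differed by -0.69 (SE 0.26) and Ppp4r4, a subunit of protein phosphatase 4, by -0.69 (SE 0.19). In the other detected probe of each the treatments overlapped, with differences of -0.37 for Lrtm1 and -0.30 for Ppp4r4.

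**Figure D3:**
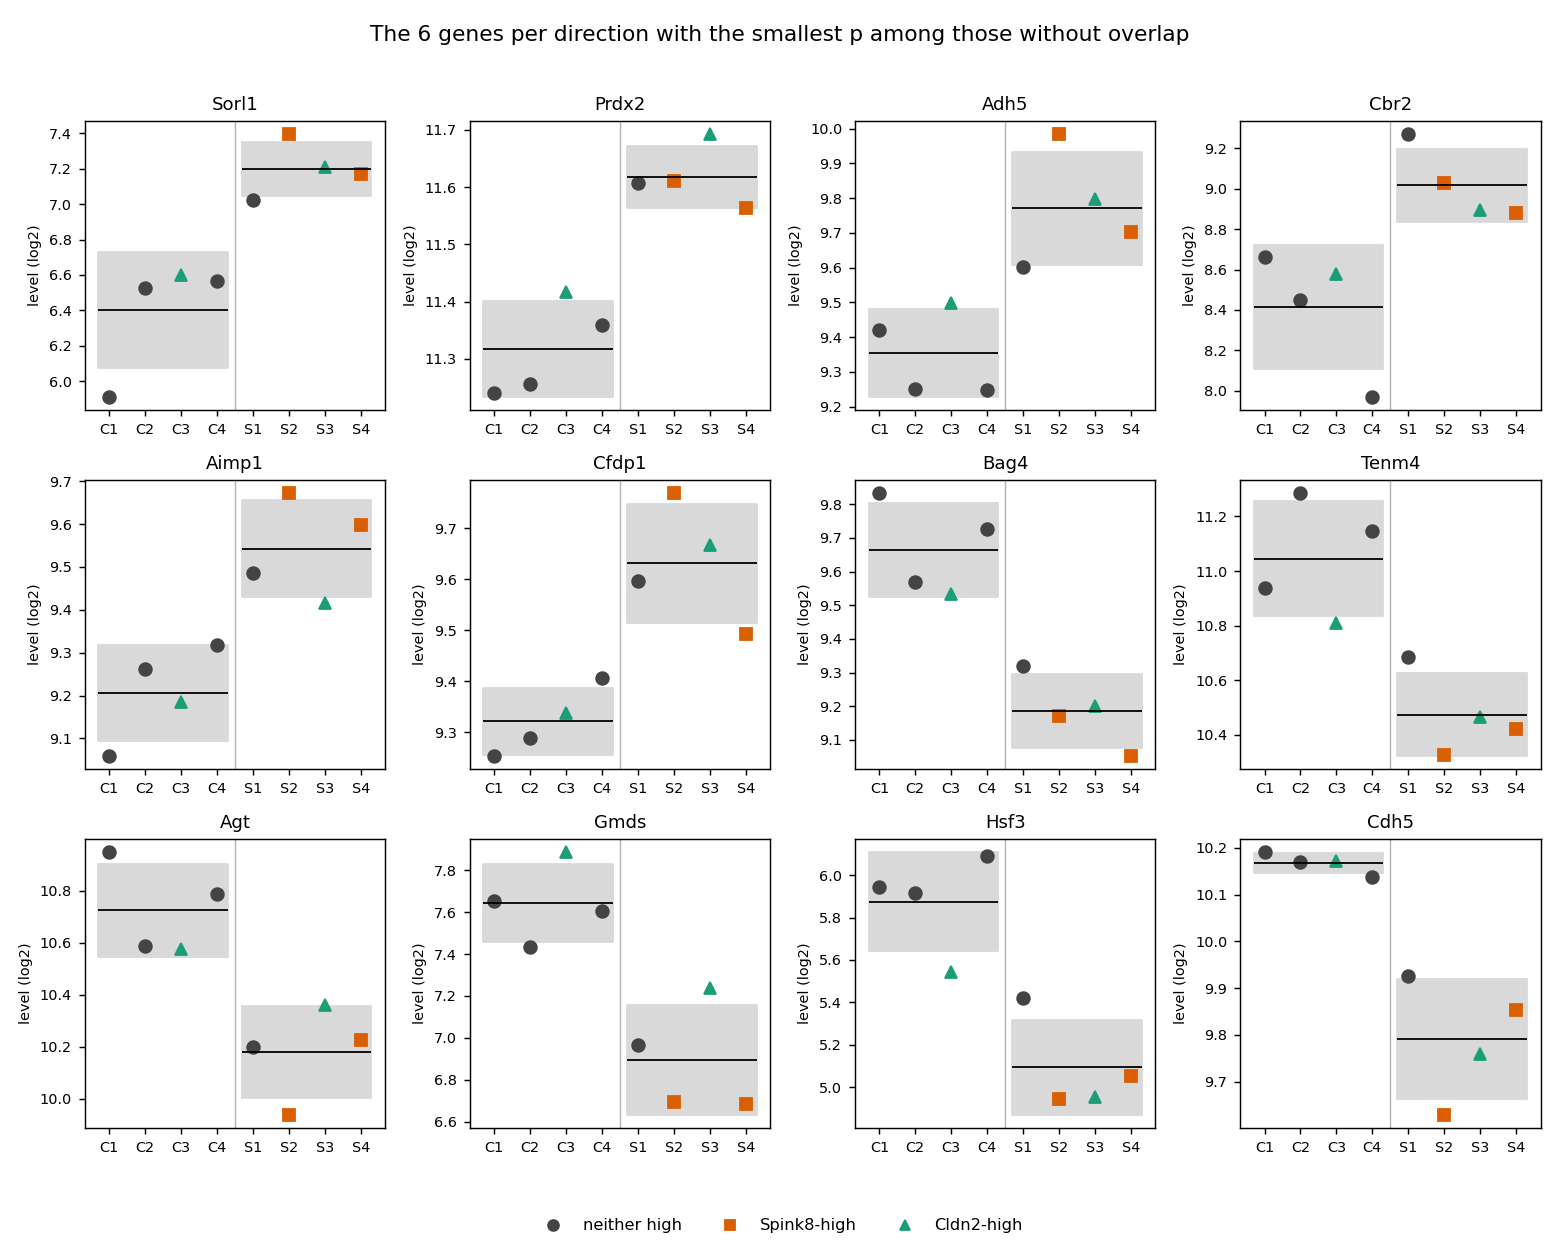
Log2 level of 12 genes in each EWAT sample, with the horizontal line and grey band giving the mean and SD of the 4 samples of each treatment. These genes were picked because C1 to C4 and S1 to S4 do not overlap, so the gap in each panel is how they were chosen. Their adjusted p was 0.841.

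No gene that drives fat cell formation passed the threshold. Of 23 detected adipogenic regulators 18 were not set aside, of which 5 were higher and 13 lower, with a median difference of -0.17 against -0.035 over all genes not set aside. All 23 gave 10 higher and 13 lower with a median of -0.087. The mean list level differed by 0.12 over all 23 and by -0.14 over the 18. With median scaling the list stood at 0.0055, which is -0.077 relative to all genes. Its median was -0.034 with a term for each set of samples. Pparg, the master regulator of fat cells, had levels of 12.26, 12.03, 11.76 and 12.08 in C1 to C4 and 12.31, 11.49, 11.41 and 11.31 in S1 to S4. S1 was the highest of all samples and the other 3 SOX6 samples the lowest. The difference was -0.41 (SE 0.21, 95% interval -0.88 to 0.073) with an adjusted p of 0.841 by limma. It was -0.033 with a term for each set of samples, and 0.18 with S2, S3, S4 and C3 left out. Cebpa, its partner factor, measured 9.87, 10.14, 9.72 and 10.11 in C1 to C4 and 10.08, 9.57, 9.72 and 9.53 in S1 to S4 and differed by -0.23 (SE 0.15). Zfp467, a zinc finger factor that favours fat over bone fate, measured 8.56, 8.48, 8.47 and 8.56 in C1 to C4 and 8.52, 7.998, 8.11 and 8.22 in S1 to S4 and had the smallest p of the list, with a difference of -0.31 (SE 0.12). Rxra, the partner receptor of PPARG, stood at -0.42, Ebf2 at -0.34 and Ebf1 at -0.28, while Cebpb was at 0.071, Cebpd at 0.056 and Bmp4, a growth factor that commits precursors, at 0.43.

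The mature fat cell list had 20 detected genes, none of them set aside, of which 4 were higher and 16 lower, with a median of -0.19. The list level was 0.23, 0.055, -0.15 and 0.26 in C1 to C4 and 0.054, -0.15, -0.30 and 0.014 in S1 to S4, so the treatments overlapped, and S3 was the lowest and C4 the highest. Relative to all genes it was -0.16 here and -0.21 with median scaling, and the median itself was -0.036 when S2, S4, C3 and S3 were left out. With 1 sample left out it ran from -0.29 without S1 to -0.094 without S3. Plin1, perilipin of the lipid droplet surface, measured 10.05, 10.21, 9.96 and 10.32 in C1 to C4 and 10.06, 9.56, 9.41 and 9.86 in S1 to S4. Its difference was -0.41 (SE 0.15, 95% interval -0.75 to -0.072), S1 was inside the control range, and the adjusted p was 0.841 by limma. Retn, resistin, measured 7.70, 7.25, 7.53 and 7.88 in C1 to C4 and 7.53, 6.70, 6.86 and 7.27 in S1 to S4 and differed by -0.50 (SE 0.21). Adipoq stood at -0.063 (SE 0.094) and Lep, the satiety hormone leptin, at 12.52, 13.14, 12.62 and 13.14 in C1 to C4 and 13.05, 12.32, 12.82 and 12.57 in S1 to S4 and -0.17 (SE 0.19). Lpl, lipoprotein lipase, and Car3, carbonic anhydrase 3, were at 0.048 and 0.030, and Slc2a4, the insulin-responsive glucose transporter, at 9.11 ± 0.31 against 9.11 ± 0.22.

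**Figure D4:**
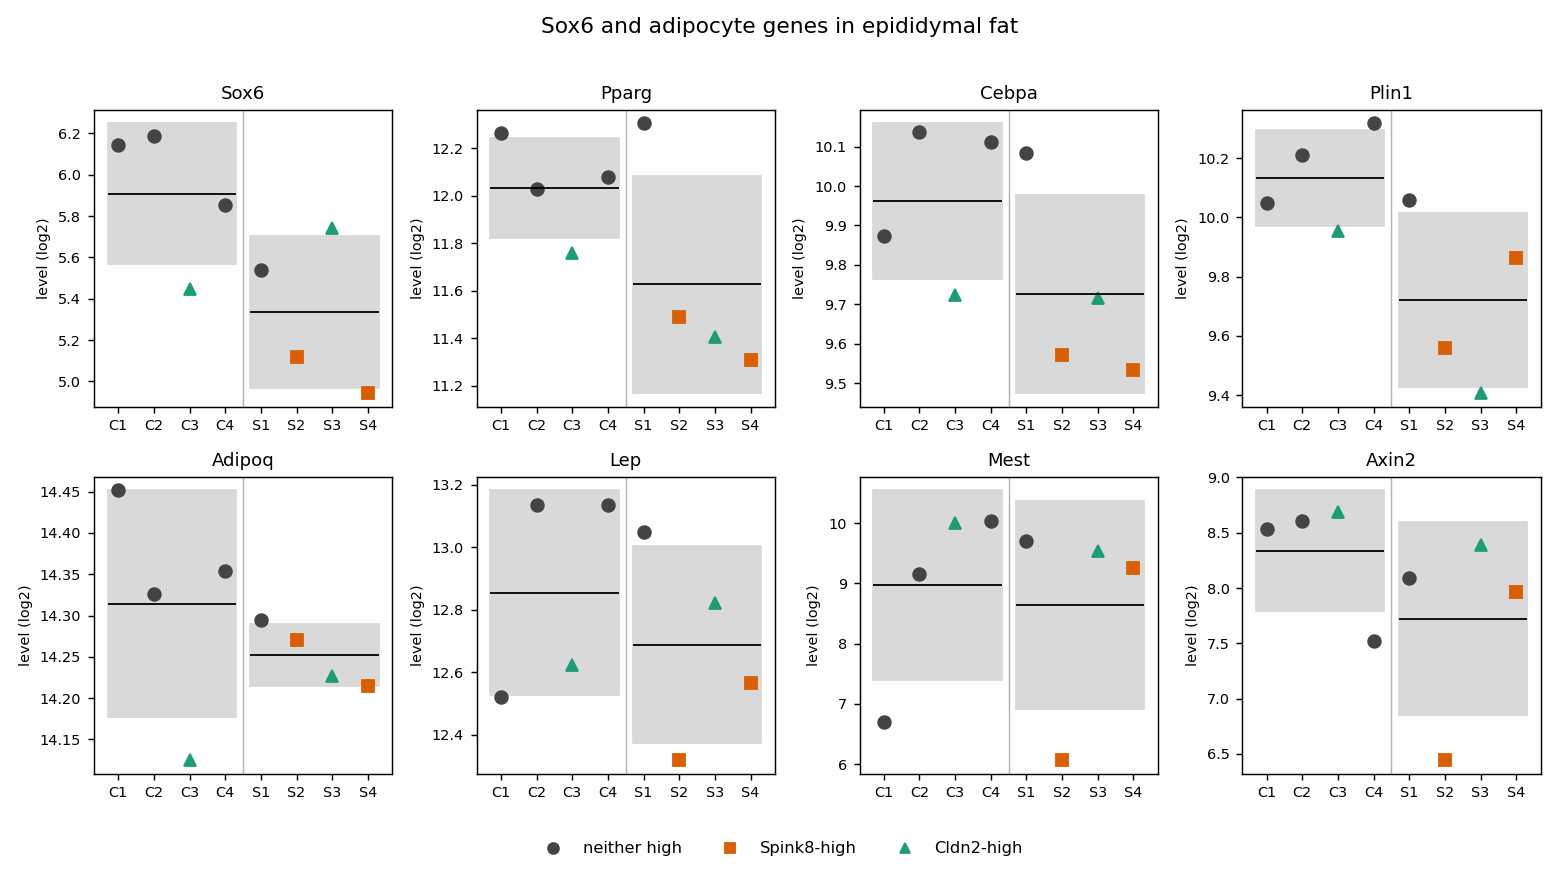
Log2 level of Sox6 and 7 genes of fat cells, Wnt signalling and fat growth in each EWAT sample, with the mean and SD of each treatment as line and band. The 2 treatments overlap in every panel, and Mest and Axin2 have single samples far from the rest.

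Wnt signalling was read from ligands, receptors, inhibitors and targets. Of 21 detected ligands, receptors and transducers 18 were not set aside, 9 higher and 9 lower, with a median of 5.9e-05. Wnt5a, a mostly non-canonical ligand, had levels of 7.64, 7.74, 7.54 and 7.69 in C1 to C4 and 7.45, 7.32, 7.01 and 7.26 in S1 to S4. The treatments did not overlap, and the difference was -0.40 (SE 0.13, 95% interval -0.68 to -0.11) with an adjusted p of 0.841 by limma. Lrp5, a co-receptor of canonical Wnt, did not overlap either, at 7.82, 7.17, 7.17 and 7.27 in C1 to C4 and 7.11, 7.04, 6.91 and 6.93 in S1 to S4, with C1 far above the other controls and a difference of -0.36 (SE 0.17). These 2 of 18 genes compare with 2.04% of all genes that were lower without overlap. Fzd2, a frizzled receptor detected on 3 of 5 control arrays, measured 4.88, 5.23, 5.51 and 4.67 in C1 to C4 and 5.24, 6.11, 5.48 and 5.79 in S1 to S4 and differed by 0.58 (SE 0.24). The Spink8-high samples were highest for Fzd2, and its difference was 0.18 with a term for each set of samples. Ctnnb1, beta-catenin, the transducer of the pathway, was at 11.54 ± 0.15 against 11.54 ± 0.15 (SD, n = 4). The inhibitors, 11 genes not set aside, split into 5 higher and 6 lower with a median of -0.021 and 0.13 with median scaling. All 15 detected inhibitors gave 9 higher and 6 lower with a median of 0.19. Among them Kremen1, a DKK receptor, stood at -0.28 (SE 0.17), and Sfrp4, a secreted frizzled-related decoy detected on 1 of 5 control and 4 of 5 SOX6 arrays, at 0.39 (SE 0.24). The 8 targets not set aside split into 3 higher and 5 lower with a median of -0.024, while all 11 detected gave 6 higher and 5 lower with a median of 0.12. Axin2, the common readout of canonical Wnt, measured 8.53, 8.60, 8.69 and 7.52 in C1 to C4 and 8.09, 6.44, 8.39 and 7.96 in S1 to S4. S2 was lowest and C4 was apart from the other controls, and the difference of -0.61 (SE 0.42, 95% interval -1.57 to 0.34) had an interval that included 0. The feedback inhibitors Nkd1 and Nkd2 stood at 0.39 (SE 0.21) and 0.26 (SE 0.16), with Nkd2 detected on 3 of 5 control arrays. Nkd1 was highest in the Spink8-high samples, at 6.57 in S2 and 6.66 in S4. With a term for each set of samples Axin2 stood at -0.19, Nkd1 at 0.10 and Nkd2 at 0.19.

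Most lipid metabolism genes had lower means in the SOX6 samples, with no gene past the threshold. Over all genes not set aside, 57.8% were lower as normalized here and 30.8% with median scaling. In fatty acid and triglyceride synthesis 6 genes were higher and 14 lower of 20, with a median of -0.19. The list level was highest in C4 at 0.46 and lowest in C3 at -0.34, so 2 controls held both ends, and the median ran from -0.32 without C3 to -0.027 without C4. Dgat1, the enzyme that adds the last fatty acid to triglyceride, measured 10.59, 10.26, 10.27 and 10.84 in C1 to C4 and 10.04, 9.88, 10.06 and 10.35 in S1 to S4 and differed by -0.41 (SE 0.15). Fads1, a desaturase of polyunsaturated fatty acids, went the other way at 11.64, 11.28, 11.89 and 11.62 in C1 to C4 and 11.47, 12.51, 12.02 and 12.26 in S1 to S4 and 0.46 (SE 0.21), with the Spink8-high samples highest. Lipolysis and lipid droplet genes were lower in 14 of 15 with a median of -0.12, and Lipe, hormone-sensitive lipase, stood at -0.29 (SE 0.15). Pnpla2, the lipase that starts lipolysis, was at -0.019 (SE 0.12). Fatty acid uptake genes were lower in 9 of 13 with a median of -0.17, and Cav1, caveolin 1, stood at -0.21 (SE 0.12). All 15 detected uptake genes gave 6 higher and 9 lower with a median of -0.029. Their mean list level differed by 0.015, against -0.13 over the 13. Fatty acid oxidation genes were lower in 14 of 17, with Cpt2, a carnitine transferase of mitochondria, at -0.16 (SE 0.095). Cholesterol synthesis genes were lower in 13 of 17 with a median of -0.20, which ran from -0.29 without S1 to -0.085 without S4. Among the 17, 1 was lower without overlap, beside 2.04% of all genes. This was Mvd, mevalonate decarboxylase, at 5.90, 5.94, 6.10 and 6.39 in C1 to C4 and 5.86, 5.81, 5.70 and 5.83 in S1 to S4 and -0.28 (SE 0.15). Respiratory chain genes were lower in 22 of 27, by a median of -0.045, close to the -0.035 over all genes; Ndufv1, a complex I subunit, stood at -0.20 (SE 0.093). With median scaling and taken relative to all genes, the medians of these 6 lists were -0.17, -0.14, -0.15, -0.076, -0.13 and -0.056. With a term for each set of duct-bearing samples they were -0.012, -0.089, -0.13, -0.055, -0.12 and -0.059, not taken relative to all genes. The macrophage genes, lowest in C4, stand beside these values and their part was not tested. Thermogenic genes were few, with 6 of 13 detected, of which 1 was higher and 5 lower with a median of -0.14. Without both sets of duct-bearing samples the median was -0.46. Cidea, a droplet protein of brown fat, was high in C1 at 7.62 and in S2 at 7.17, against 5.44 to 6.13 in the other samples. The 1 higher gene was Cox7a1, a muscle and brown fat subunit of cytochrome oxidase, at 0.51 (SE 0.21).

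Secreted and growth-related genes gave no call. Of 17 adipokine genes not set aside 4 were higher and 13 lower, with a median of -0.17, -0.29 without the Cldn2-high samples and -0.021 without both sets. Rbp4, the retinol carrier, measured 10.98, 10.69, 10.02 and 10.46 in C1 to C4 and 10.56, 9.95, 9.68 and 9.85 in S1 to S4 and differed by -0.53 (SE 0.23). In insulin signalling 12 of 15 genes were lower, led by Grb14, an adaptor that restrains the insulin receptor, at 8.17, 7.42, 8.18 and 7.76 in C1 to C4 and 7.62, 7.11, 7.41 and 7.28 in S1 to S4 and -0.53 (SE 0.20). Mest, an imprinted gene whose level tracks fat mass expansion in mice, had levels of 6.70, 9.15, 10.01 and 10.04 in C1 to C4 and 9.71, 6.07, 9.55 and 9.25 in S1 to S4. C1 and S2 were well below the other 6 samples, 1 of each treatment, so the difference of -0.33 (SE 0.94, 95% interval -2.45 to 1.79) was far inside the spread. Peg3, another imprinted gene, was low in the same samples at 5.21, 7.15, 7.11 and 6.85 in C1 to C4 and 7.06, 4.88, 6.72 and 6.43 in S1 to S4. Grb10, an imprinted adaptor of the insulin receptor, stood at 0.22 (SE 0.11). Of the 10 detected SOX factor genes 8 were lower. Besides Sox6 these included Sox5, of the same SoxD group, at 7.75, 7.26, 6.79 and 7.29 in C1 to C4 and 7.23, 6.68, 6.58 and 7.28 in S1 to S4 and -0.33 (SE 0.24), and Sox11 at -0.35 (SE 0.18), while Sox13, the third SoxD gene, stood at 0.11 (SE 0.24). Sox9, a factor of cartilage and duct epithelium, was set aside, at 10.77 in C3 and 10.33 in S3.

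Macrophage genes were higher in 14 of 15 detected, with a median difference of 0.37, and 0 of them passed the threshold. The list level was 0.062, 0.15, -0.13 and -0.89 in C1 to C4 and 0.58, 0.19, 0.36 and -0.33 in S1 to S4. C4 was lowest and S1 highest, the treatments overlapped, and the differences on the 4 chips ran from -0.21 to 1.47. The median was 0.19 without C4, 0.25 without S1 and 0.83 without both sets of duct-bearing samples. C1qb, a complement subunit made by macrophages, measured 9.44, 9.56, 9.53 and 8.37 in C1 to C4 and 10.48, 9.89, 10.25 and 9.45 in S1 to S4 and differed by 0.79 (SE 0.30). Cd163, the haemoglobin scavenger receptor, measured 9.07, 8.80, 7.91 and 8.16 in C1 to C4 and 9.39, 9.06, 9.47 and 8.92 in S1 to S4 and differed by 0.72 (SE 0.25). Lyz2, lysozyme, measured 10.65, 11.18, 10.90 and 8.91 in C1 to C4 and 11.59, 10.82, 11.39 and 9.79 in S1 to S4 and Mrc1, the mannose receptor, 9.56, 9.72, 9.27 and 8.23 in C1 to C4 and 10.06, 9.49, 9.74 and 8.38 in S1 to S4, with both lowest in C4. Stab1, a scavenger receptor that takes up phosphorothioate oligonucleotides and is made by macrophages and sinusoidal endothelium, measured 8.99, 8.99, 9.12 and 9.002 in C1 to C4 and 9.21, 9.26, 9.81 and 9.54 in S1 to S4. Its treatments did not overlap and the difference was 0.43 (SE 0.14, 95% interval 0.13 to 0.74) with an adjusted p of 0.841 by limma. This holds for its probe with the highest mean. In its other detected probes the treatments overlapped, with differences of 0.41 and 0.15. Among the 14 genes of antisense uptake, sensing and RNA cleavage Stab1, by that probe, was the only 1 without overlap, beside 0.756% of all genes. Rnaseh1, the nuclease that gapmers recruit, was at 6.99 ± 0.099 against 6.96 ± 0.14. Inflammatory cytokine genes were higher in 9 of 13 with a median of 0.30. The level over these 13 was -0.12, -0.16, -0.049 and -0.22 in C1 to C4 and 0.12, 0.24, 0.13 and 0.061 in S1 to S4, which did not overlap. Over all 15 detected members it was -0.26, -0.35, 0.29 and -0.49 in C1 to C4 and 0.065, 0.25, 0.45 and 0.049 in S1 to S4. There the treatments overlapped, with C3 above S1, S2 and S4. All 15 gave 11 higher and 4 lower with a median of 0.37. Over the 13 the median was 0.15 with a term for each set of samples and 0.057 without both sets. Ccl7, a monocyte attractant, measured 6.64, 7.18, 7.37 and 6.10 in C1 to C4 and 8.09, 7.57, 7.74 and 6.35 in S1 to S4, Cxcl13, a B cell attractant, 6.17, 4.71, 5.22 and 4.71 in C1 to C4 and 4.56, 7.87, 6.11 and 6.05 in S1 to S4 while Icam1, an adhesion molecule, differed by 0.30 (SE 0.12). Macrophage genes, lowest in C4 and highest in S1, stand beside these values and their part was not tested. Ccl4, detected on 2 of 5 control and 5 of 5 SOX6 arrays, stood at 0.45 (SE 0.18). Interferon-induced genes were higher in 9 of 15 with a median of 0.089, and -0.049 without S1, where Ifit3 was highest at 9.30.

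Endothelial genes were lower in 14 of 17 with a median of -0.18, and 2 of them, Cdh5 and Flt1, were lower without overlap, beside 2.04% of all genes. Flt1, a receptor for VEGF, measured 10.72, 10.65, 10.46 and 10.60 in C1 to C4 and 10.30, 10.16, 10.34 and 10.42 in S1 to S4 and differed by -0.30 (SE 0.090). The list level was 0.14, 0.012, 0.012 and 0.15 in C1 to C4 and 0.045, -0.35, -0.11 and 0.094 in S1 to S4, and S2 was lowest. With 1 sample left out the median ran from -0.22 without S1 to -0.074 without S2, and it was -0.10 with a term for each set of samples and -0.075 without both sets. Among other endothelial genes Tek, the angiopoietin receptor, stood at 0.024 (SE 0.10), Esam at 0.0029 (SE 0.10) and Pecam1 at -0.20 (SE 0.15). With median scaling the endothelial median was -0.042, or -0.13 relative to all genes. Precursor and stromal genes were higher in 8 of 13, with Thy1, a surface marker of fibroblasts, at 8.34, 9.10, 8.64 and 8.60 in C1 to C4 and 9.10, 9.04, 9.25 and 9.10 in S1 to S4 and 0.45 (SE 0.15). Matrix genes were higher in 12 of 21, led by Fn1, fibronectin, at 9.03, 9.88, 9.56 and 8.38 in C1 to C4 and 10.12, 9.91, 10.43 and 9.31 in S1 to S4 and 0.73 (SE 0.33), where C4 was lowest as for the macrophage genes. Mesothelial genes were at 0.996 in C2 and -0.60 in C4, which is within 1 treatment and wider than the difference of 0.018 between treatments. Over all 12 detected mesothelial genes the level was 0.57 in C2 and -0.95 in C4, and the difference was 0.40.

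**Figure D5:**
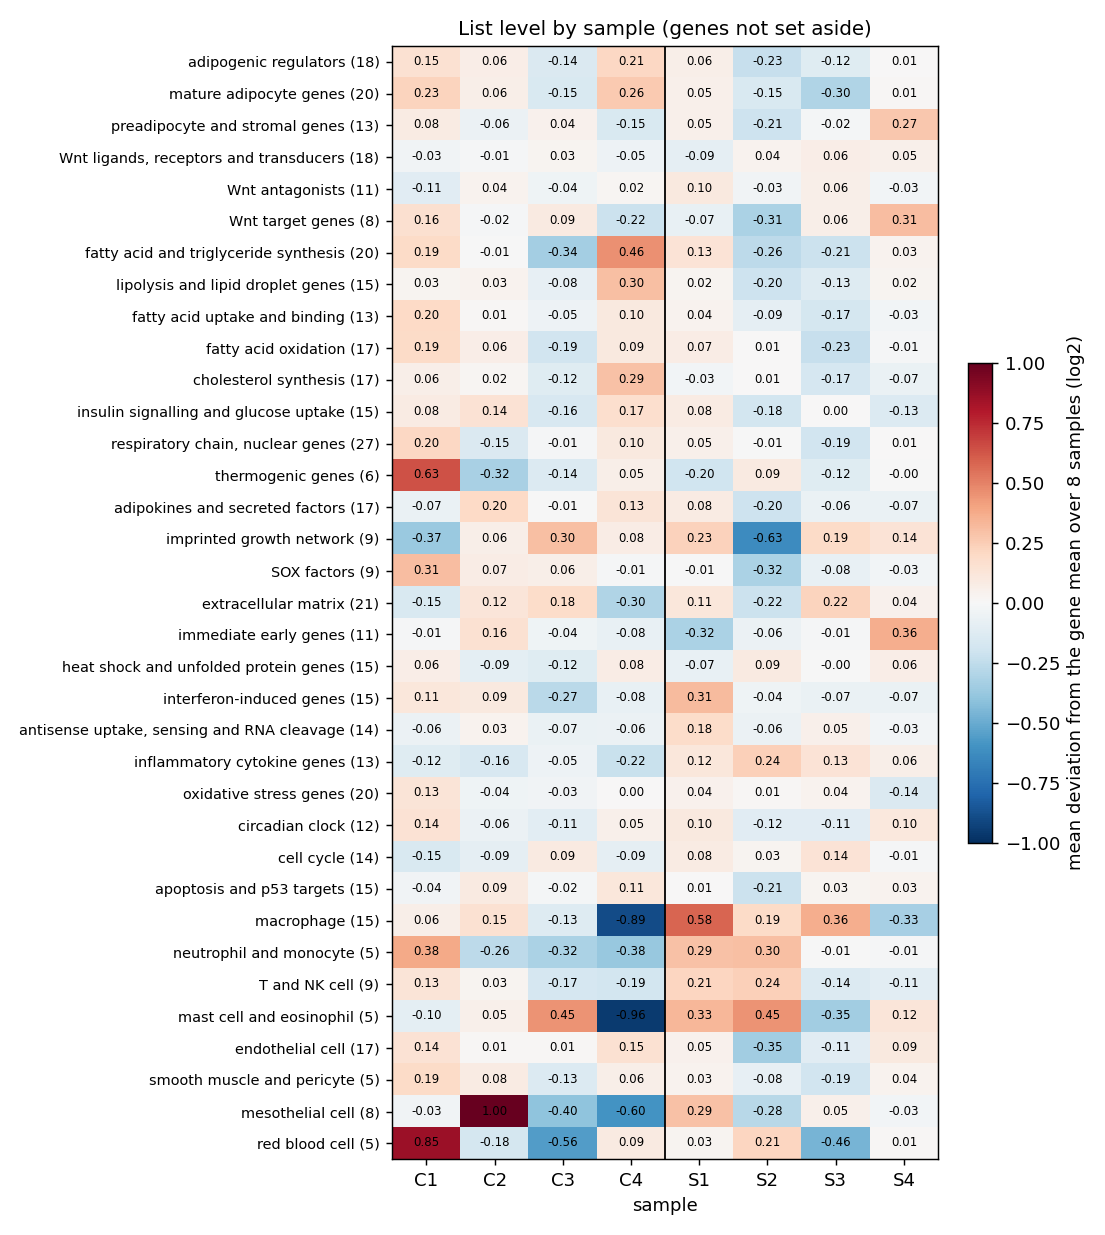
Mean deviation of each list from the gene means over the 8 samples (log2, colour and printed value) for lists with at least 5 genes that were not set aside, whose number stands in brackets. Columns are C1 to C4 and S1 to S4. The macrophage row is lowest in C4 at -0.89 and highest in S1 at 0.58, and the mesothelial row spans -0.60 to 0.996 within the controls.

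No gene of the other lists passed the threshold. Oxidative stress genes split into 10 higher and 10 lower. Among the 20, 1 was higher without overlap, beside 0.756% of all genes. This was Prdx2 by its probe with the highest mean, while its other detected probes overlapped. Clock genes, which matter because fat has a daily rhythm, were 7 higher and 5 lower with a median of 0.027, and Arntl, the core activator, measured 6.29, 6.04, 5.94 and 5.29 in C1 to C4 and 5.67, 5.07, 5.57 and 4.93 in S1 to S4 and differed by -0.58 (SE 0.25). Immediate early genes not set aside had 4 higher and 7 lower, with Klf6 at -0.25 (SE 0.16), but all 18 detected gave 11 higher and 7 lower with a median of 0.21. Heat shock and unfolded protein genes not set aside had 7 higher and 8 lower, against 10 higher and 8 lower with a median of 0.085 over all 18, with Herpud1, an endoplasmic reticulum stress gene, at 0.24 (SE 0.13). Cell cycle genes were higher in 10 of 14 by a median of 0.11, which is 0.14 relative to all genes, and Cdc20, an activator of the anaphase-promoting complex, stood at 0.47 (SE 0.22), detected on 4 of 5 control arrays. Apoptosis and p53 target genes were lower in 10 of 15, and Bbc3, a p53-induced killer of cells, measured 8.97, 8.30, 7.82 and 8.09 in C1 to C4 and 8.496, 7.41, 7.22 and 7.32 in S1 to S4 and differed by -0.68 (SE 0.32), with C1 and S1 the highest of their treatments. Of the 27 gene lists, 19 had a median below 0 and 8 above it over the genes not set aside, and 15 and 12 over all detected members. Over the genes not set aside and relative to all of them under the 3 scalings, 12 were below throughout, 14 above throughout, and 1, the apoptosis list, differed in sign.

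Gene span and promoter sequence were set against the direction of the difference, since gapmers can cleave unspliced RNA and SOX6 binds promoters. The 224 lower genes without overlap spanned a median of 26.0 kb and the 74 higher ones 14.2 kb, against 22.3 kb over all genes not set aside. Of the lower genes 13 (5.80%) spanned over 200 kb, 0 of the higher ones did, and 4.24% of all genes did. Among genes at an unadjusted limma p under 0.01 it was 7 of 55 lower (12.7%) and 0 of 15 higher, a difference that was not tested. Tenm4, Gmds and Sox6 itself are of this length. These subsets were picked by the difference itself. Over the genes not set aside, the 433 that spanned over 200 kb had a median difference of -0.046, and 58.7% were lower. The 9784 genes of up to 200 kb had a median of -0.035, and 57.8% were lower, so the groups were close. Without overlap, 13 of the 433 were lower and 0 higher, against 211 lower and 74 higher of the 9784. Promoters from the RefSeq table of GRCm38.p6, 300 bases around each gene's start, were searched for AACAAT, a core that SOX proteins bind, and its reverse complement ATTGTT. It was in 9 of 182 lower genes with a promoter (4.95%), 4 of 60 higher genes (6.67%) and 585 of 8309 genes not set aside (7.04%), and in 10.7% of all 32851 promoters of the table. The share among the lower genes was not above that of all genes. The promoter of the gene with the smallest p among the carriers in each direction is shown, with the match in capitals, to let the 2 kinds of sequence be seen side by side. D16Ertd472e was lower, at a difference of -0.55 and 1700019D03Rik was higher, at 0.67, both with an adjusted p of 0.841.
D16Ertd472e, chr16:78576639-78576938, minus strand: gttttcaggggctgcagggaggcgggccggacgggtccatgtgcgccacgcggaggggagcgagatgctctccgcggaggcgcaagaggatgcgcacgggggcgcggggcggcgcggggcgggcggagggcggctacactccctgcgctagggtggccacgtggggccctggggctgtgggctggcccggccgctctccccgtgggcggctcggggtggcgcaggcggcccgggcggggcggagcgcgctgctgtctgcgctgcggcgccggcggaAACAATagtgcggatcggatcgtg
1700019D03Rik, chr1:52992608-52992907, minus strand: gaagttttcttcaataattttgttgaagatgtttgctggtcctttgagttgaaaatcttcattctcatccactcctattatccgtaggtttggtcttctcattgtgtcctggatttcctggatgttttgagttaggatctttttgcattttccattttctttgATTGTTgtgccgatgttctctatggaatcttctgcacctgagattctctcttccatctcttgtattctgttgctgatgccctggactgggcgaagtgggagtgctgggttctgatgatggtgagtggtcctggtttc
The first is rich in g and c and the second is rich in t. A match is a string of letters and was not tested for binding.

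The response in fat was compared with that in liver of the same series, where the same oligonucleotides were given and 21 of 8939 genes passed (0.235%). Of those 21, 20 were measured in EWAT, 11 had the same sign there, and 1, Ino80c, was without overlap in the liver's direction, beside 2.04% of all genes lower without overlap in EWAT. Ino80c, a subunit of a chromatin remodeller, measured 9.82, 9.93, 9.74 and 9.79 in C1 to C4 and 9.65, 9.20, 9.28 and 9.57 in S1 to S4 in EWAT, a difference of -0.39 (SE 0.12) against -0.70 in liver. Fhit, a diadenosine triphosphate hydrolase gene, stood at -0.091 in EWAT and -1.38 in liver, and Abcf1, a translation factor, at -0.18 and -1.21. A treatment by tissue term was fitted to the 24 arrays in a joint normalization, and 2 of 10978 genes passed (0.0182%), Abcf1 and Fhit. Abcf1 measured 9.52, 9.59, 9.63 and 9.74 in C1 to C4 and 9.52, 9.25, 9.44 and 9.41 in S1 to S4 in EWAT and 9.28, 9.48, 9.55 and 9.60 in C1 to C4 and 8.26, 8.56, 8.34 and 8.37 in S1 to S4 in liver. In liver the treatments were far apart and in EWAT they met, C1 and S1 being level, and EWAT minus liver was 0.88 (SE 0.13) with an adjusted p of 0.0419 by limma. Fhit measured 6.10, 5.86, 6.62 and 5.68 in C1 to C4 and 5.76, 5.97, 6.31 and 5.84 in S1 to S4 in EWAT, where the treatments overlapped, and 5.92, 6.20, 6.32 and 6.46 in C1 to C4 and 4.39, 4.53, 4.30 and 4.47 in S1 to S4 in liver. It was detected on 8 of 8 liver control arrays and 0 of 6 liver SOX6 arrays, so its liver level with the SOX6 oligonucleotide is only bounded from above and the difference below rests on it. EWAT minus liver was 1.71 (SE 0.26) with an adjusted p of 0.0419 by limma. Neither call was kept when C1, C2, C4, S1, S3 or S4 of EWAT was left out, where 0 genes passed, and 1 gene passed without S2 and 3 without C3. Sox6 stood at -0.45 in EWAT and -0.21 in liver in the same fit, and the difference between them, -0.24 (SE 0.24), did not pass with an adjusted p of 0.882 by limma.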

How the data were processed

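Total RNA was hybridised to Illumina mouse bead arrays of 45281 probes. Per the submitters' processing notes GenomeStudio was used; its version is not given in the sources used here. The deposited intensity values are background-subtracted signals, not normalized between arrays, with 25.7% to 29.7% of probes below 0 on an EWAT array. A deposited detection p-value accompanies each signal, and 41.5% to 45.9% of probes had one under 0.05. The authors' deposited log2 values, with an equal distribution on all 24 arrays, were an alternative. The number of arrays limits the precision.

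The 10 EWAT arrays were normalized alone with neqc (limma 3.58.1, R 4.3.3, offset 16) from signals and detection p-values, and repeat arrays of a label were averaged. A probe was detected with a mean detection p under 0.05 in at least 3 of 8 samples, and a gene took its detected probe with the highest mean. Of the probes 34885 have 1 gene in the platform annotation, 18 several and 10378 none, and 34807 matched RefSeq (GRCm38.p6) by Entrez ID. Treatments were compared with lmFit and eBayes (trend on mean intensity; two-sided p, Benjamini-Hochberg) over all 10978 genes at 0.05, and Sox6 also by an exact permutation test. Intervals are 95% limma intervals, SD is between samples. Scripts were tested on simulated data. Promoters on chromosome 18 were not used here. The interaction used all 24 arrays normalized together. Each chip held both treatments.

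A sample was Spink8-high or Cldn2-high when that gene lay over 3 log2 units above its median. Genes were named by a rule: Sox6; the 6 genes per direction with the smallest p and the 6 with the widest difference among those without overlap and not set aside; the member with the smallest p of each list with at least 5 detected members (2 for adipogenic, mature fat cell, Wnt and triglyceride lists); Pparg, Cebpa, Mest, Axin2, Ctnnb1, Adipoq, Lep and Plin1; the 4 genes with the highest rise of each kind set aside; and, for levels only, the 2 highest members of each marker list. Genes named beyond it (Rxra, Ebf1, Ebf2, Cebpb, Cebpd, Bmp4, Lpl, Car3, Slc2a4, Lrp5, Lipe, Pnpla2, Rbp4, Peg3, Sox5, Sox11, Sox13, Sox9, C1qb, Cd163, Lyz2, Mrc1, Rnaseh1, Ccl7, Cxcl13, Icam1, Flt1, Tek, Esam, Pecam1, Cidea, Spink1, Keg1, Ino80c, Fhit, Abcf1 and D16Ertd472e) were chosen after their values were seen. The members, the 27 gene lists and the 18 marker lists were chosen with earlier results of these data known. Alternatives were other background corrections, scalings and offsets, the authors' values, chip, admixture terms, a replicate block, array weights, detection filters, other variance models and leaving out samples.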

Additional observations from a re-analysis of the deposited data

Results flagged for a closer look

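Of 166 groups of 4 samples tested, 15 held a sample whose gap to the nearest other was above Dixon's 95% critical value, and chance gives about 1 in 20 groups. Among genes, Sorl1 was at 5.91 in C1 against 6.53 to 6.60 in the other controls, Sfrp4 at 5.38 in C2 against 4.42 to 4.52, Stab1 at 9.12 in C3 against 8.99 to 9.002, and Axin2 at 7.52 in C4 against 8.53 to 8.69. In S1, Ifit3 was at 9.30 against 8.82 to 8.89 in the other SOX6 samples, Ccl4 at 5.62 against 5.17 to 5.23, and Bbc3 at 8.496 against 7.22 to 7.41. Mest was at 6.07 in S2 against 9.25 to 9.71, and Ctnnb1 at 11.76 in S3 against 11.45 to 11.47. Among list levels, S1 stood apart for Wnt ligands, receptors and transducers at -0.091 and for interferon-induced genes at 0.31. S2 stood apart for the imprinted growth network at -0.63 and for apoptosis and p53 targets at -0.21. C2 did so for antisense uptake, sensing and RNA cleavage at 0.033, and S4 for oxidative stress genes at -0.14.

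The response differed between EWAT and liver by the interaction term in Abcf1, by 0.88, and in Fhit, by 1.71, on the log2 scale. Fhit was above background on 0 of 6 liver SOX6 arrays, so its value rests on a level that is only bounded. No gene passed when any 1 of C1, C2, C4, S1, S3 and S4 was left out.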

How the results depend on the processing

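None of the 55 genes chosen by the rule passed the adjusted threshold under any of 32 alternatives. Genes past the threshold numbered 0 under every alternative except without both sets of duct-bearing samples, where there were 2 (Spink1 and Keg1), 1 of them not set aside. Genes without overlap numbered 137 higher and 36 lower with median scaling, 121 higher with cyclic loess, 179 higher with no detection filter, 422 higher and 616 lower without the Spink8-high samples, 445 and 1041 without the Cldn2-high samples, and 2021 and 2456 without both, where fewer samples make overlap rarer. Leaving out 1 sample gave 140 to 269 higher and 292 to 806 lower. Limma's unadjusted p of Sox6, under 0.05 before, was above it with a term for each set of samples, where the difference was -0.20; leaving out 1 sample gave -0.73 to -0.44. With the replicate number as a block 0 genes passed. Genes not set aside at an unadjusted p under 0.05 then numbered 252 higher and 507 lower, against 149 and 322. The block cannot move the difference of Sox6 (-0.57) in this balanced design, and limma's unadjusted p went from 0.0361 to 0.0486. Deviations of same-numbered samples correlated at 0.29, -0.044, 0.66 and 0.25. They were not taken as pairs because 1 of the 4 was not over 0.1. S3 and S4 correlated best with their own number, S1 with C2 (0.40) and S2 with C1 (0.19). C3 and S3, at 0.66, are also the Cldn2-high samples, so a shared number and shared duct tissue cannot be told apart there. These correlations come from the data and not from the design. The interaction called 5 genes with the replicate block across tissues (Ndufv1, Abcf1, Fhit, Atg16l2 and Ppp4r1l-ps), 5 without both sets, and 0 to 3 with 1 sample left out.

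With median scaling the list medians were Wnt ligands, receptors and transducers 0.099, Wnt antagonists 0.13, adipogenic regulators 0.0055, antisense uptake, sensing and RNA cleavage 0.17, apoptosis 0.10, cell cycle 0.24, cholesterol synthesis -0.051, circadian clock 0.16, fatty acid uptake -0.064, heat shock and unfolded protein genes 0.086, inflammatory cytokines 0.39, insulin signalling 0.039 and oxidative stress 0.088. With a term for each set of samples Wnt antagonists were at 0.051, inflammatory cytokines 0.15 and insulin signalling 0.048. Inflammatory cytokines were at 0.23 with probes detected in all 8 samples, 0.21 with no filter and 0.22 with an offset of 50, and Wnt antagonists at 0.14 with genes set aside by a Pearson r over 0.9. Adipokines were at -0.29 without the Cldn2-high samples, and Wnt ligands, receptors and transducers at 0.064 and antisense uptake, sensing and RNA cleavage at 0.11 without the Spink8-high samples. Without both sets the medians were -0.021 for adipokines, 0.13 for antisense uptake, sensing and RNA cleavage, -0.10 for heat shock and unfolded protein genes, -0.30 for immediate early genes, 0.057 for inflammatory cytokines, 0.32 for interferon-induced genes and -0.46 for thermogenic genes. With 1 sample left out the ranges were -0.046 to 0.11 for Wnt antagonists, -0.088 to 0.058 for apoptosis, -0.16 to -0.056 for fatty acid uptake and 0.27 to 0.40 for inflammatory cytokines.

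Named genes changed sign as follows. Ctnnb1 was at 0.069 with median scaling, 0.025 with loess, 0.016 with terms for the sets, 0.020 with array weights, 0.066 without the Spink8-high samples and -0.080 to 0.047 with 1 sample left out. Mest was at 0.46, 0.65 and 1.08 with terms, without the Spink8-high samples and without both sets, and -1.09 to 0.53 with 1 sample left out. Lep was at 0.15, 0.080 and 0.12 under the same settings. Cebpa was at 0.023 with terms and 0.044 without both sets, where Pparg was at 0.18, Fads1 -0.043, Herpud1 -0.011 and Bbc3 0.041. Grb10 was at -0.058 as the mean of its probes. The cause was not tested.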

Other observations

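C1 stood apart from the other controls in several kinds of genes. The red blood cell list was at 0.85 in C1 and -0.56 in C3, and the brown adipocyte list at 1.12 in C1 and between -0.38 and 0.14 in the others. Erdr1 was at 4.45, 10.60, 10.35 and 10.81 in C1 to C4 and 10.39, 9.06, 10.79 and 10.91 in S1 to S4, so C1 was far below the other 7 samples. Fcna, a ficolin of tissue macrophages, measured 9.07, 9.68, 8.14 and 7.41 in C1 to C4 and 10.20, 9.75, 9.93 and 9.10 in S1 to S4, and Wfdc17, a macrophage protein, 7.67, 8.13, 9.05 and 6.27 in C1 to C4 and 9.43, 8.73, 9.34 and 8.09 in S1 to S4. Slc15a2, a peptide transporter, measured 6.16, 6.01, 7.02 and 7.14 in C1 to C4 and 5.63, 5.37, 6.65 and 4.46 in S1 to S4. Prm1, a protamine of sperm, was at 8.05 in S3, 7.02 in C2 and 6.18 in S4 and at most 4.90 in the other samples. These genes were chosen after their values were seen.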
